A study of Mus musculus with 16 samples.

Results

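The genes described here are 40 components of the activin, BMP and TGF-beta signalling pathways, chosen by name and grouped by role: 11 ligands and ligand subunits, 6 secreted antagonists and follistatin-like proteins, 11 receptors, 6 receptor-activated and common Smads, 2 inhibitory Smads and the 4 Id genes, which are classical BMP targets. All 40 were measured, among 18193 genes that had a probe set of their own on the Affymetrix Mouse Genome 430 2.0 array. RNA was taken from 16 newborn (P0) XX mouse ovaries, each dissected away from the mesonephros and hybridised to 1 array, with 4 ovaries per genotype. Runx1 KO ovaries were Runx1-/f with wild-type Foxl2 and an Sf1-cre+/Tg transgene, which drives Cre in somatic cells of the gonad. Foxl2 KO ovaries were Foxl2-/- and Runx1+/f without Cre. DKO ovaries were Runx1-/f and Foxl2-/- with Sf1-cre+/Tg. Control ovaries were Runx1+/f and Foxl2+/+ without Cre, so every ovary of the series carried a floxed Runx1 allele. Since only Runx1 KO and DKO ovaries carried Cre, loss of Runx1 and presence of the transgene cannot be told apart, and the lines had mixed genetic backgrounds. RUNX1 and FOXL2 are DNA-binding proteins of pre-granulosa cells, which support the germ cells of the fetal ovary, and the comparisons ask which members depend on one factor, on the other or on both.

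Ligands of this family are secreted dimers that bring type I and type II receptor kinases together. Activins and TGF-betas act mainly through SMAD2 and SMAD3, and BMPs mainly through SMAD1, SMAD5 and SMAD9, each in a complex with SMAD4. Antagonists such as follistatin and noggin bind the ligands outside the cell, and inhibitory Smads act within it. In the ovary, activins, inhibins and BMPs are known regulators of granulosa cells and of follicle formation, and follistatin is a known product of the supporting cells of the fetal ovary.

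Values are the deposited array intensities on a linear scale, and differences are log2(intensity + 16) of the knockout group minus that of the controls or of the other group named, ± the moderated standard error from limma (n = 4 ovaries per group). The offset makes the differences of dim genes smaller than those of the intensities themselves. A member is said to rise or fall where its limma p, adjusted over all 18193 genes, is under 0.05. A whole ovary was assayed, so fewer cells of a type and less RNA per cell cannot be told apart.

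Foxl2 itself read 484 to 890 in Foxl2 KO ovaries and 570 to 839 in DKO ovaries, against 2774 to 4241 in controls. Runx1 read 932 to 2127 in Runx1 KO ovaries and 2111 to 2370 in DKO ovaries, against 2142 to 2359 in controls, and was not called in either group. All 4 Runx1 KO values lay below all 4 controls, as held for 1.44% of all genes, while the DKO values overlapped the controls. Both groups carried the same Runx1 deletion and were read by the same probe set, and why they differed was not tested. Where the probes lie relative to the deleted part was not looked up, and the array does not check the Runx1 genotype. The list of ovarian supporting cell markers holds the 2 deleted genes, so it is given without them. Of the other 8, Nr5a2, Esr2 and Kitl fell in Foxl2 KO and in DKO, Cdkn1b fell in DKO as well, and 0 were called in Runx1 KO. Wnt4, Rspo1, Irx3 and Lgr5 lay above the control mean in Foxl2 KO and DKO without passing the test. The summed intensities of the 8 were 12065 to 13159 in Foxl2 KO, 10348 to 12146 in DKO and 11448 to 15752 in Runx1 KO, against 12382 to 16749 in controls, so that DKO alone lay clear of the controls. Of 10 Sertoli cell markers, those of the supporting cell of the testis, 5 rose in Foxl2 KO, 5 in DKO and 1 in Runx1 KO (summed intensities 3670 to 5190 in Foxl2 KO, 4318 to 5223 in DKO and 3249 to 3608 in Runx1 KO, against 2630 to 3515 in controls). Sox9, Dmrt1, Dhh and Cst9 rose in Foxl2 KO and DKO, Hsd17b3 in Foxl2 KO, and Fgf9 in DKO and Runx1 KO. The brightest, Gata4, was not called (mean 2228 in DKO and 1913 in Foxl2 KO, against 1764 in controls). Amh was not called either, and Sox8 and Ptgds lay below the control mean in Foxl2 KO and DKO. Of 4 measured steroidogenic markers, 1, Hsd3b1, fell in all 3 knockout groups. None of the oocyte, endothelial, macrophage, stromal, muscle or surface epithelial markers was called in any knockout group. No measured marker of any list read 0 or less in all 4 ovaries of a group. Control replicate 4 stood apart, with a summed erythroid marker intensity of 20188, against at most 622 in the other 15 ovaries. Results that lean on that ovary are also given without it.

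Of the 40 members, 1 passed the test in Runx1 KO, 2 passed it in Foxl2 KO and 4 passed it in DKO. In Runx1 KO, 1 member rose, against 0.0495% of all genes, and 0 fell, against 0.0715% (0.121% in either direction). In Foxl2 KO, 1 rose, against 0.813% of all genes, and 1 fell, against 0.704% (1.52% in either direction). In DKO, 2 rose, against 1.28%, and 2 fell, against 0.857% (2.13% in either direction). The receptor gene Bmpr1b rose in all 3 knockout groups, the signal transducer gene Smad3 fell in both groups without Foxl2, and Fst and Bmp7 were called in DKO. The other 36 members were called in no contrast. The median log2 difference of the 40 members was 0.04 in Runx1 KO, 0.01 in Foxl2 KO and 0.00 in DKO, beside 0.04, 0.05 and 0.04 over all genes in the same order of groups. An unadjusted p under 0.05 was reached by 5, 8 and 7 members in that order, and by 1335, 1999 and 2250 of all genes. These 3 comparisons share the same 4 control ovaries.

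**Figure D1:**
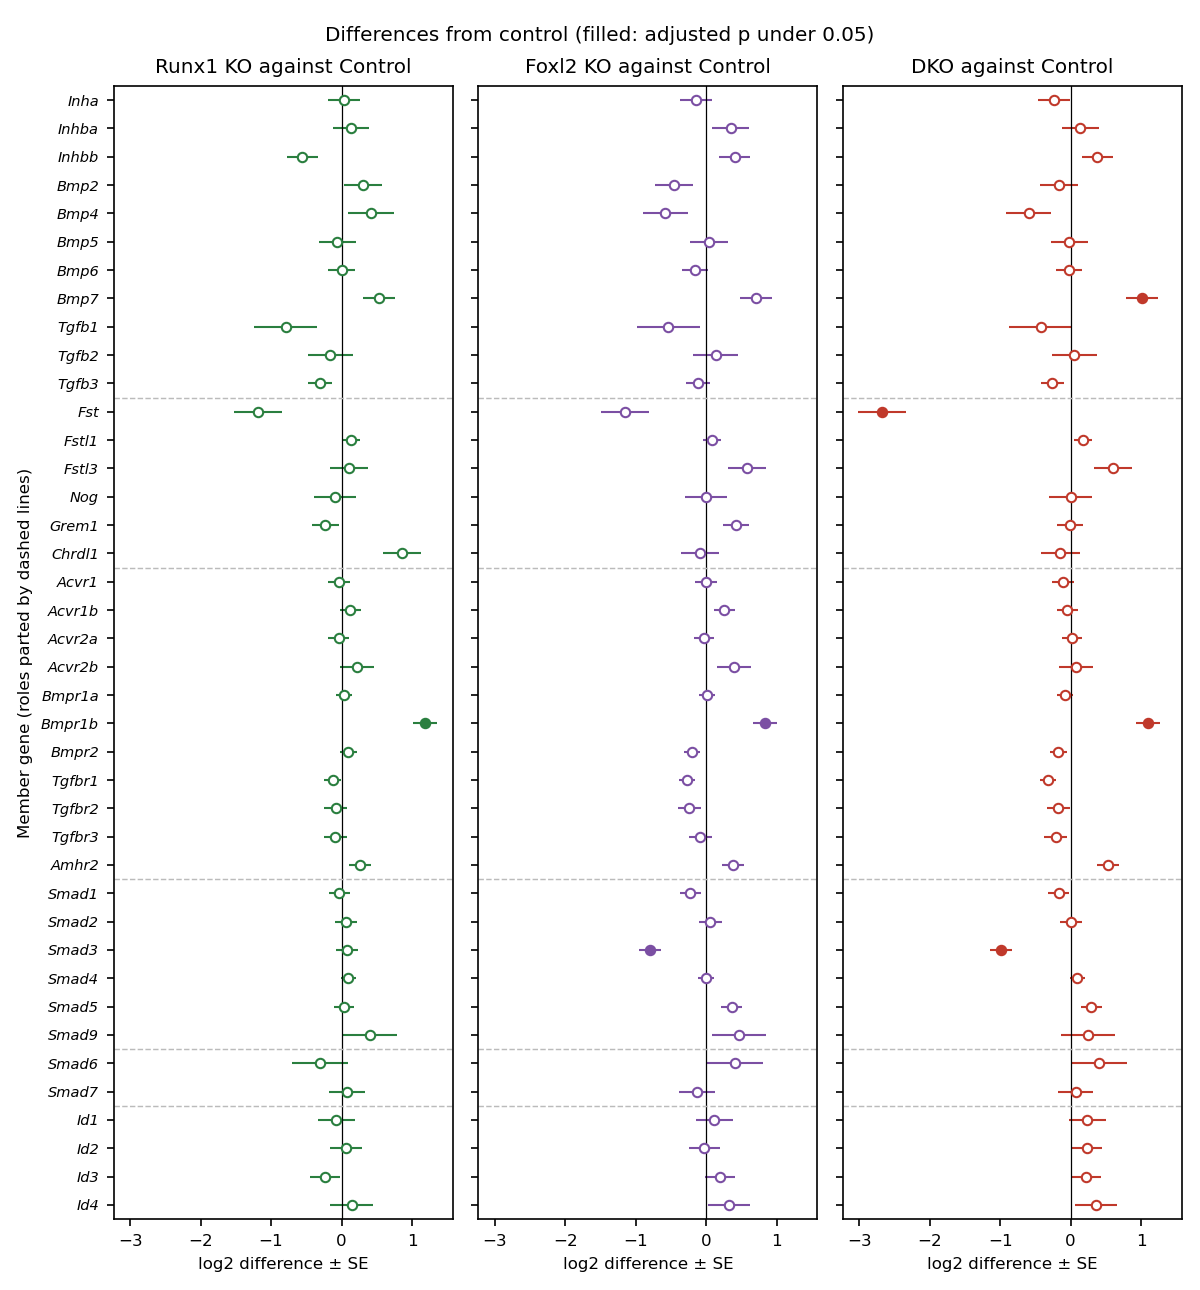
Log2 difference from control (horizontal axis, points) with its standard error (bars) for each of the 40 members (vertical axis, roles parted by dashed lines) in Runx1 KO, Foxl2 KO and DKO ovaries, n = 4 per group. Filled points passed an adjusted p of 0.05: Bmpr1b in all 3 panels, Smad3 in Foxl2 KO and DKO, and Fst and Bmp7 in DKO, where Fst lies farthest from 0 at -2.67.

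Among the ligands, Bmp7, a BMP of many epithelia and of the kidney, was the only one of 11 that was called against control. It read 209, 201, 281 and 328 in DKO ovaries, against 111, 168, 135 and 69 in controls. All 4 DKO ovaries lay above all 4 controls, as held for 4.9% of all genes. Bmp7 was 2.02-fold higher in DKO (log2 1.01 ± 0.22, limma adjusted p = 0.0241). It read 164, 260, 205 and 178 in Foxl2 KO ovaries and 205, 177, 148 and 171 in Runx1 KO ovaries, and both ranges overlapped that of the controls. The differences were 0.71 ± 0.22 in Foxl2 KO (adjusted p = 0.178) and 0.53 ± 0.22 in Runx1 KO (adjusted p = 0.616). The lowest control value, 69, came from the ovary that stood apart, and without it Bmp7 in DKO gave 0.80 with an adjusted p of 0.0579. The call was also lost without DKO replicate 3, DKO replicate 4 or Control replicate 1 (adjusted p up to 0.0893). Of the 3 Bmp7 probe sets, the brightest was called in DKO and the others were not (0.86 and 0.62, adjusted p = 0.113 and 0.424). For single probe sets p was adjusted over all 34945 that match 1 gene. Since Bmp7 is also a gene of the mesonephros, the 4 measured of 6 mesonephros markers are given beside it: their summed intensity was 3115 to 3712 in DKO, against 2372 to 3244 in controls, and 1 of them, Pax8, was called higher (log2 2.23). In Foxl2 KO the sum was 2980 to 3248 and Pax8 was called too (log2 1.74). The brightest marker, Emx2, did not rise, with a mean of 2506 in DKO and 2441 in Foxl2 KO, against 2634 in controls. The mean of Pax8 was 701 in DKO, against 153 in controls. Lhx1 and Cdh16 lay above the control mean in both groups without being called. The part of these markers in the result was not tested.

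Inhbb, which encodes the beta B subunit of activin B and inhibin B, stood highest in the groups without Foxl2 and lowest in Runx1 KO, and passed the test in no contrast. It read 1753, 1997, 2748 and 1466 in DKO and 2203, 2293, 2166 and 1390 in Foxl2 KO ovaries. The level was lower in Runx1 KO ovaries, with 1036, 824, 913 and 1308, and the controls lay between, at 1546, 1689, 1650 and 1129. Every DKO ovary lay above every Runx1 KO ovary, as held for 3.22% of all genes. The difference of DKO from Runx1 KO was 0.94 ± 0.22 and just missed the threshold (adjusted p = 0.0544). It passed without Runx1 KO replicate 4, Foxl2 KO replicate 4, DKO replicate 4 or Control replicate 4 (adjusted p from 0.0369). Against control Inhbb differed by 0.38 ± 0.22 in DKO, by 0.41 ± 0.22 in Foxl2 KO and by -0.56 ± 0.22 in Runx1 KO (adjusted p = 0.527, 0.53 and 0.585). The second, dimmer Inhbb probe set gave 0.63 ± 0.20 for DKO against Runx1 KO (adjusted p = 0.269).

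Bmp4, a BMP of the gonadal and mesonephric mesenchyme, read 153, 81, 63 and 145 in DKO, 131, 78, 93 and 132 in Foxl2 KO and 306, 218, 305 and 128 in Runx1 KO ovaries, against 218, 232, 152 and 96 in controls. The groups overlapped, and DKO minus Runx1 KO was -1.01 ± 0.32 (adjusted p = 0.209). Tgfb1, the founding TGF-beta, had a single high value, 193, in the control ovary that stood apart. The other controls read 39, 57 and 50, against 71, 31, 67 and 34 in DKO, 66, 45, 74 and 12 in Foxl2 KO and 56, 36, 45 and 11 in Runx1 KO ovaries. Inha and Inhba, the alpha and beta A subunits of inhibins and activins, differed from control by -0.23 to 0.35 in the 3 groups. Bmp2, Bmp5, Bmp6, Tgfb2 and Tgfb3 differed by -0.46 to 0.30 on their brightest probe sets, none of them called. Over all 4 of its probe sets Tgfb2 ran from -0.16 to 0.41 in Runx1 KO and from 0.05 to 0.55 in DKO, none called.

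The antagonist gene Fst had the largest difference of any member. It encodes follistatin, which binds activins and keeps them from their receptors. Fst read 259, 366, 382 and 278 in DKO ovaries, against 1814, 2452, 2256 and 1969 in controls. Most single-knockout ovaries lay between, at 1415, 1059, 1444 and 359 in Foxl2 KO and 707, 1309, 975 and 790 in Runx1 KO. All 4 ovaries of each knockout group lay below all 4 controls, as held for 2.71% of all genes (DKO), 2.23% (Foxl2 KO) and 1.44% (Runx1 KO).

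Fst fell 6.38-fold in DKO (log2 -2.67 ± 0.34, limma adjusted p = 0.000334). It was not called in either single knockout, with -1.15 ± 0.34 in Foxl2 KO (adjusted p = 0.147) and -1.18 ± 0.34 in Runx1 KO (adjusted p = 0.372). Under the methods' analysis of variance, without adjustment and with a 1.5-fold minimum, Fst passed in both. The 95% interval of the difference was -1.87 to -0.42 in Foxl2 KO and -1.91 to -0.46 in Runx1 KO. DKO minus Foxl2 KO was -1.52 ± 0.34 (adjusted p = 0.164) and DKO minus Runx1 KO was -1.49 ± 0.34 (adjusted p = 0.0523), and all DKO ovaries lay below all Runx1 KO ovaries, as held for 2.71% of all genes. The departure from additivity on the log2 scale, DKO minus Foxl2 KO less Runx1 KO minus control, was -0.34 ± 0.48 (adjusted p = 0.966, 95% interval -1.37 to 0.69).

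Several of these values turned on Foxl2 KO replicate 4. Its Fst value of 359 lay among the DKO values, while the other 3 Foxl2 KO ovaries read 1059 to 1444. Without it, Fst was called in Runx1 KO (adjusted p = 0.0302), in DKO against Foxl2 KO (log2 -1.98, adjusted p = 0.00181) and in DKO against Runx1 KO (adjusted p = 0.00149), and Foxl2 KO against control gave a smaller difference of -0.70. DKO against Runx1 KO was also called without Foxl2 KO replicate 3. A second, dimmer Fst probe set gave -2.45 in DKO (adjusted p = 0.000371) and was not called in Foxl2 KO or Runx1 KO (adjusted p = 0.236 and 0.495). On this probe set DKO against Runx1 KO was called (-1.45, adjusted p = 0.0447).

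**Figure D2:**
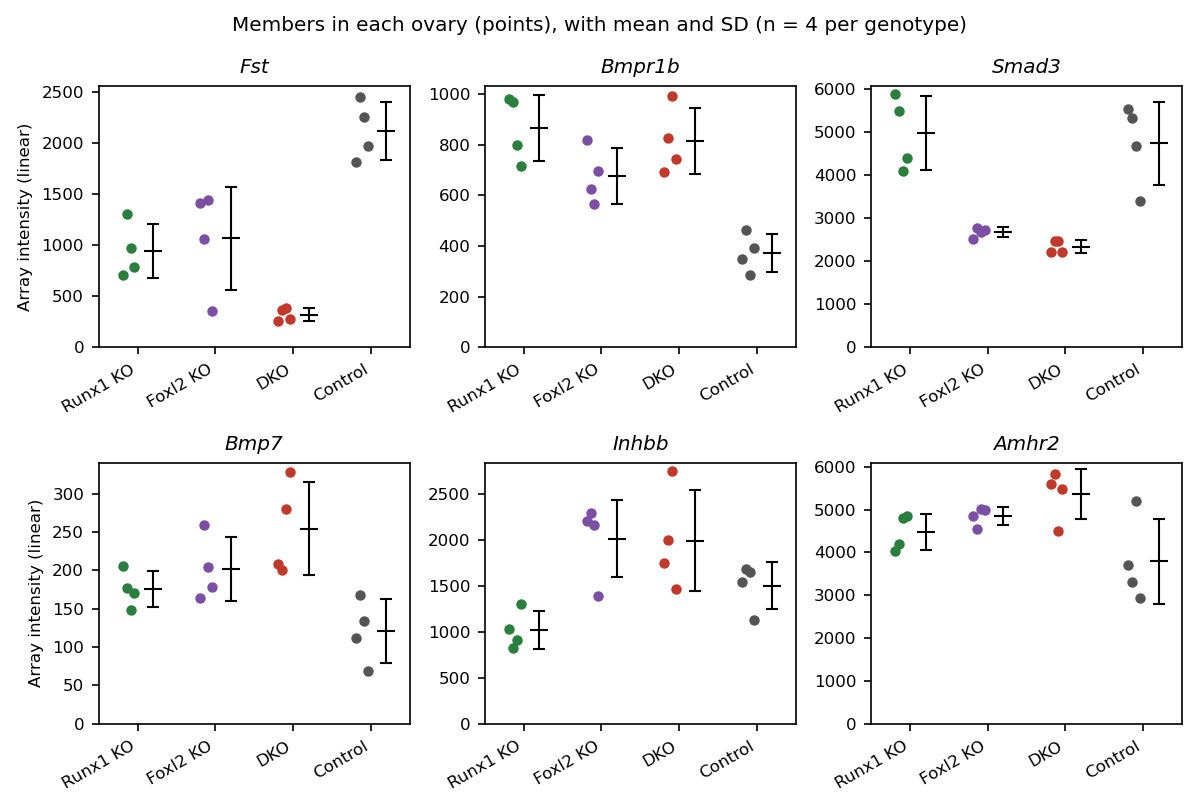
Linear array intensity (vertical axis) of Fst, Bmpr1b, Smad3, Bmp7, Inhbb and Amhr2 in each ovary of the 4 genotypes (horizontal axis), with the mean (bar) and SD (whiskers) beside the points, n = 4 each. Fst in DKO ovaries (259 to 382) lies below every control ovary (1814 to 2452), Bmpr1b lies above the controls in all 3 knockout groups, and Smad3 in Foxl2 KO and DKO ovaries (2206 to 2769) lies below every control ovary (3402 to 5549). Of all genes, 2.71% lay wholly below the controls in DKO and 2.23% in Foxl2 KO. Wholly above them lay 2.53% in Runx1 KO, 4.49% in Foxl2 KO and 4.9% in DKO.

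Of the other antagonists, Chrdl1, a chordin-like BMP binder, was highest in Runx1 KO, at 93, 87, 130 and 65, while DKO ovaries read 53, 23, 21 and 67, Foxl2 KO ovaries 26, 45, 37 and 56, and controls 33, 49, 66 and 33. The Runx1 KO range touched that of the controls at its lower end (65.4 against 65.5), and the difference was 0.86 ± 0.27 (adjusted p = 0.45). DKO minus Runx1 KO had a 95% interval of -1.58 to -0.42 (adjusted p = 0.121). Fstl3, a follistatin relative that also binds activins, differed by 0.60 ± 0.27 in DKO and 0.58 ± 0.27 in Foxl2 KO (adjusted p = 0.384 and 0.457), and by 0.10 ± 0.27 in Runx1 KO. Fstl1, a secreted follistatin-like glycoprotein, and Nog, which encodes the BMP antagonist noggin, differed by -0.09 to 0.18. Grem1, another BMP antagonist gene, read below 16 in 14 of 16 ovaries and differed by -0.23 to 0.42. Y-linked genes, which XX ovaries lack, had mean log2 levels of 4.51 to 8.30, with 5 of 6 at or below 6.16. The means of Grem1, Nog, Chrdl1, Tgfb1, Smad6 and Smad9 lay below 6.16, within the range of most of those genes.

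Bmpr1b was the only member called in all 3 knockout groups. It encodes a type I BMP receptor, known in the ovary from granulosa cells. It read 980, 970, 800 and 715 in Runx1 KO ovaries, 820, 623, 565 and 698 in Foxl2 KO ovaries and 694, 828, 992 and 744 in DKO ovaries, against 348, 462, 287 and 393 in controls. No knockout ovary of the 12 overlapped a control ovary. The share of all genes whose 4 values lay above the controls was 2.53% in Runx1 KO, 4.49% in Foxl2 KO and 4.9% in DKO. Bmpr1b was 2.28-fold higher in Runx1 KO (log2 1.19 ± 0.17, limma adjusted p = 0.00793), 1.79-fold higher in Foxl2 KO (0.84 ± 0.17, adjusted p = 0.0189) and 2.15-fold higher in DKO (1.10 ± 0.17, adjusted p = 0.00184).

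Between knockout groups Bmpr1b was not called. DKO minus Runx1 KO was -0.09 (95% interval -0.45 to 0.28) and DKO minus Foxl2 KO was 0.26 (95% interval -0.10 to 0.63). The interaction was -0.93 ± 0.24, with an unadjusted limma p of 0.00156 and an adjusted p of 0.599, so the departure from additivity was not called over all genes. The other Bmpr1b probe sets gave 1.16 and 1.19 in DKO, both called, 0.85 and 0.68 in Foxl2 KO, of which the first was called, and 0.94 and 1.04 in Runx1 KO, where neither was called (adjusted p = 0.13 and 0.0684). The Foxl2 KO call was lost without Foxl2 KO replicate 1 or 4 or Control replicate 1 or 3 (adjusted p up to 0.0674).

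None of the other 10 receptor genes was called. Amhr2, the receptor for anti-Müllerian hormone and a gene of gonadal somatic cells, had its largest difference in DKO, at 5606, 5839, 4507 and 5471, against 3703, 3311, 5203 and 2940 in controls. A single high control ovary made the groups overlap, and the difference was 0.52 ± 0.16 (adjusted p = 0.113). It read 4852, 4555, 5010 and 4992 in Foxl2 KO (0.39 ± 0.16, adjusted p = 0.348) and 4026, 4199, 4815 and 4861 in Runx1 KO (0.27 ± 0.16, adjusted p = 0.741). Tgfbr1, the type I TGF-beta receptor, read 2747, 3047, 2684 and 2457 in DKO, 2895, 2687, 2854 and 2861 in Foxl2 KO and 2700, 3421, 3133 and 3242 in Runx1 KO, against 3284, 3447, 3946 and 2999 in controls. Its Foxl2 KO ovaries all lay below the controls, as held for 2.23% of all genes, with a small difference of -0.27 ± 0.12 (adjusted p = 0.41), and in DKO it was -0.32 ± 0.12 (adjusted p = 0.246). The activin receptor genes Acvr1, Acvr1b, Acvr2a and Acvr2b, the BMP receptor genes Bmpr1a and Bmpr2, and Tgfbr2 and Tgfbr3 differed from control by -0.24 to 0.39. That range is of the brightest probe sets. Over all its probe sets Acvr2b ran from 0.22 to 0.80 in Runx1 KO and from 0.27 to 0.74 in Foxl2 KO. Tgfbr2 ran from -0.57 to 0.22 in DKO, and none of these was called.

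Smad3 was the only one of the 6 receptor-activated and common Smads that was called. SMAD3 carries activin and TGF-beta signals to the nucleus and is known from granulosa cells. It read 2206, 2464, 2475 and 2206 in DKO and 2506, 2769, 2688 and 2736 in Foxl2 KO ovaries, against 5549, 5326, 4690 and 3402 in controls. All 4 ovaries of each of these groups lay below all 4 controls, as held for 2.71% of all genes (DKO) and 2.23% (Foxl2 KO). In Runx1 KO ovaries Smad3 read 5889, 5501, 4105 and 4410, within reach of the controls. Smad3 fell 1.99-fold in DKO (log2 -0.99 ± 0.16, limma adjusted p = 0.00213) and 1.74-fold in Foxl2 KO (-0.80 ± 0.16, adjusted p = 0.0148), and its difference in Runx1 KO was 0.08 ± 0.16 (adjusted p = 0.939, 95% interval -0.25 to 0.41).

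Smad3 was also the single member called between knockout groups. DKO minus Runx1 KO was -1.07 ± 0.16 (adjusted p = 0.00231), where 0.989% of all genes were called and 0.566% were called lower. DKO minus Foxl2 KO was -0.19 (95% interval -0.53 to 0.14), although every DKO ovary lay below every Foxl2 KO ovary, as held for 1.79% of all genes. No member was called in DKO against Foxl2 KO, where 0.0605% of all genes were. An unadjusted limma p under 0.05 was reached there by 2 of the 40 members and by 978 of all 18193 genes. The interaction was called in 0 of the 40 members by limma and in 0.011% of all genes. Its unadjusted p was under 0.05 in 2 members, Bmpr1b and Chrdl1, and in 970 of all 18193 genes. Of the 3 Smad3 probe sets, 2 fell in both Foxl2 KO and DKO, and the third gave -0.75 and -0.82 (adjusted p = 0.154 and 0.0835). The call in Foxl2 KO was lost without Control replicate 2 (adjusted p = 0.0539). Of the markers given above, 3 (Foxl2 KO) and 4 (DKO) of the 8 ovarian supporting cell genes fell and 5 of 10 Sertoli genes rose in each of the groups in which Smad3 fell, and their part in the results for Smad3, Fst and Bmpr1b was not tested.

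**Figure D3:**
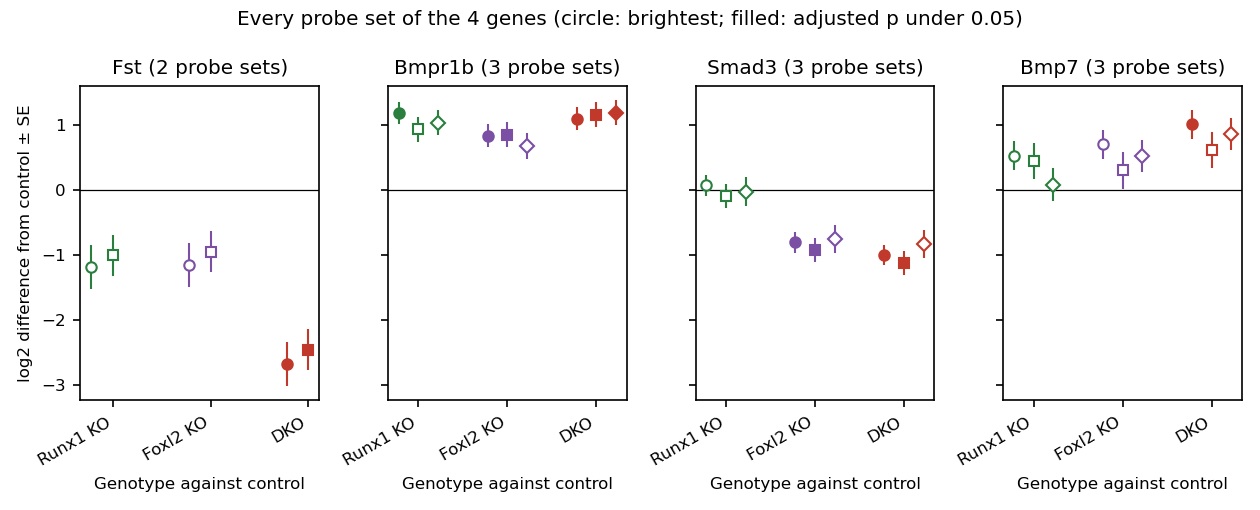
Log2 difference from control (vertical axis) with its standard error for every probe set of Fst, Bmpr1b, Smad3 and Bmp7 in the 3 knockout groups (horizontal axis), n = 4 ovaries per group, with filled symbols at an adjusted p under 0.05 over all probe sets that match 1 gene. The probe sets of a gene lie on the same side of 0 where it was called, and 1 of 3 Bmp7 probe sets passed in DKO.

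Smad1, Smad2, Smad4, Smad5 and Smad9 were not called, and Smad5, a BMP Smad, differed by 0.29 ± 0.15 in DKO (adjusted p = 0.46) and 0.36 ± 0.15 in Foxl2 KO (adjusted p = 0.366). Of the inhibitory Smads, Smad6 read 33, 47, 52 and 63 in DKO, 60, 78, 69 and 11 in Foxl2 KO and 41, 34, 2 and 29 in Runx1 KO, against 23, 58, 21 and 36 in controls, and Smad7 differed by -0.13 to 0.08. Over its 2 probe sets Smad7 ran from 0.07 to 0.29 in DKO, neither called. Id3, an inhibitor of basic helix-loop-helix factors that BMP signals switch on, read 1072, 1184, 1172 and 997 in DKO and 698, 837, 604 and 1131 in Runx1 KO. The groups overlapped, and DKO minus Runx1 KO was 0.46 ± 0.21 (adjusted p = 0.512). It read 1028, 1277, 1118 and 922 in Foxl2 KO and 891, 765, 1469 and 785 in controls. All 4 Id genes had a difference above 0 in DKO, from 0.23 to 0.36 on their brightest probe sets, beside a median of 0.04 over all genes. Over all probe sets Id2 ran from 0.12 to 0.41 and Id4 from 0.02 to 0.36 in DKO. None of the 4 Id genes was called in any contrast.

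RefSeq promoter windows (GRCm38.p6, 250 bases before to 50 after a start) were at hand for 29 of the 40 members, in 34 windows. The motif TGTGGT, the core bound by RUNX factors, or its other strand ACCACA was in 0 of the 34, against 16.8% of 32851 windows of all genes. The forkhead motif TGTTTAC (other strand GTAAACA) was in 0, against 3.65%. The GC-rich SMAD motif GGCGCC, its own complement, was in 10 of 34 windows (29.4%), against 11.9% of all windows, and those belonged to Acvr1b, Bmpr1a, Bmpr2, Grem1, Id2, Id4, Smad5, Smad9 and Tgfbr1. These counts describe the letters of the windows and no binding. Of the 4 members called against control, Smad3 and Bmpr1b had windows, and 250 bases before a start are shown for each. Capitals mark CG pairs, of which a window of all genes held a median of 6.
Smad3, chr9:63757995-63758244, minus strand: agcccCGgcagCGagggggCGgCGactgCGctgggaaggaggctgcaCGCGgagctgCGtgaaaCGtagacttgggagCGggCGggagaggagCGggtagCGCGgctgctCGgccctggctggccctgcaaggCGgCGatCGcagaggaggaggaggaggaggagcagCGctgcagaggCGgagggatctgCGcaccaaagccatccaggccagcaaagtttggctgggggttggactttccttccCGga
Bmpr1b, chr3:141982265-141982514, minus strand: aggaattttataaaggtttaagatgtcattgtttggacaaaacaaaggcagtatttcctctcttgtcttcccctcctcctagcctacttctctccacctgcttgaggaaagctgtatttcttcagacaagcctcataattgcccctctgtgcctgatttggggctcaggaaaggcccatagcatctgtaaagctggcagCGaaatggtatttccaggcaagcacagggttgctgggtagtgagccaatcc
The Smad3 stretch held 22 CG pairs and 69.2% G and C, and this Bmpr1b stretch held 1 and 46.8%, against a median of 52.4% over all windows. The Bmpr1b stretch is the outermost of the gene's 3 windows but lies inside the annotated gene, and the other 2 held 5 CG pairs each, with 52.8% and 56.4% G and C.

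Beyond the 40 members, 61 of 70 further genes of the same pathways were measured. In Runx1 KO 1 rose and 0 fell, in Foxl2 KO 0 rose and 3 fell, and in DKO 1 rose and 3 fell, against the same backgrounds of 0.121%, 1.52% and 2.13%. Bmper, which encodes a secreted BMP-binding protein, read 68.2, 69.5, 46.5 and 60.3 in DKO and 57.8, 95.8, 87.3 and 49.4 in Foxl2 KO ovaries, against 162, 195, 212 and 202 in controls. It fell in both groups without Foxl2 (log2 -1.44 ± 0.23, limma adjusted p = 0.0027 in DKO and -1.27 ± 0.23, adjusted p = 0.0101 in Foxl2 KO) and in DKO against Runx1 KO (-1.11 ± 0.23, adjusted p = 0.0332), and in Runx1 KO it gave -0.33 ± 0.23 with ovaries at 222, 109, 198 and 101. Like Smad3, Bmper lay below all 4 controls in every ovary without Foxl2, as held for 2.71% of all genes in DKO and 2.23% in Foxl2 KO.

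Thbs1, whose product can activate latent TGF-beta, was also low in both of those groups: it read 99.9 to 205 in DKO and 168 to 295 in Foxl2 KO, against 1575 to 2308 in controls, and fell by 3.56 and 2.97 on the log2 scale. Tgfb1i1, a TGF-beta-induced coactivator, read 644, 693, 688 and 794 in DKO, against 1828, 1785, 1193 and 1088 in controls, and fell in DKO by 1.01 ± 0.21 (adjusted p = 0.0139), with -0.83 ± 0.21 in Foxl2 KO (adjusted p = 0.0613). The homeobox genes Msx1 and Msx2 are BMP targets in many tissues and went different ways. Msx1 read 44.4, 61.7, 34.0 and 25.2 in Foxl2 KO, against 112, 180, 146 and 98.5 in controls, and fell there (-1.40 ± 0.30, adjusted p = 0.0289), with -0.94 ± 0.30 in DKO (adjusted p = 0.156). Msx2 rose in both groups with the Runx1 deletion, by 1.59 ± 0.23 in DKO (adjusted p = 0.00118) and 1.31 ± 0.23 in Runx1 KO (adjusted p = 0.0438), where ovaries read 105 to 152 and 88.3 to 139, against 23.8 to 61.6 in controls. It also rose in DKO against Foxl2 KO (1.70 ± 0.23, adjusted p = 0.00775).

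**Figure D4:**
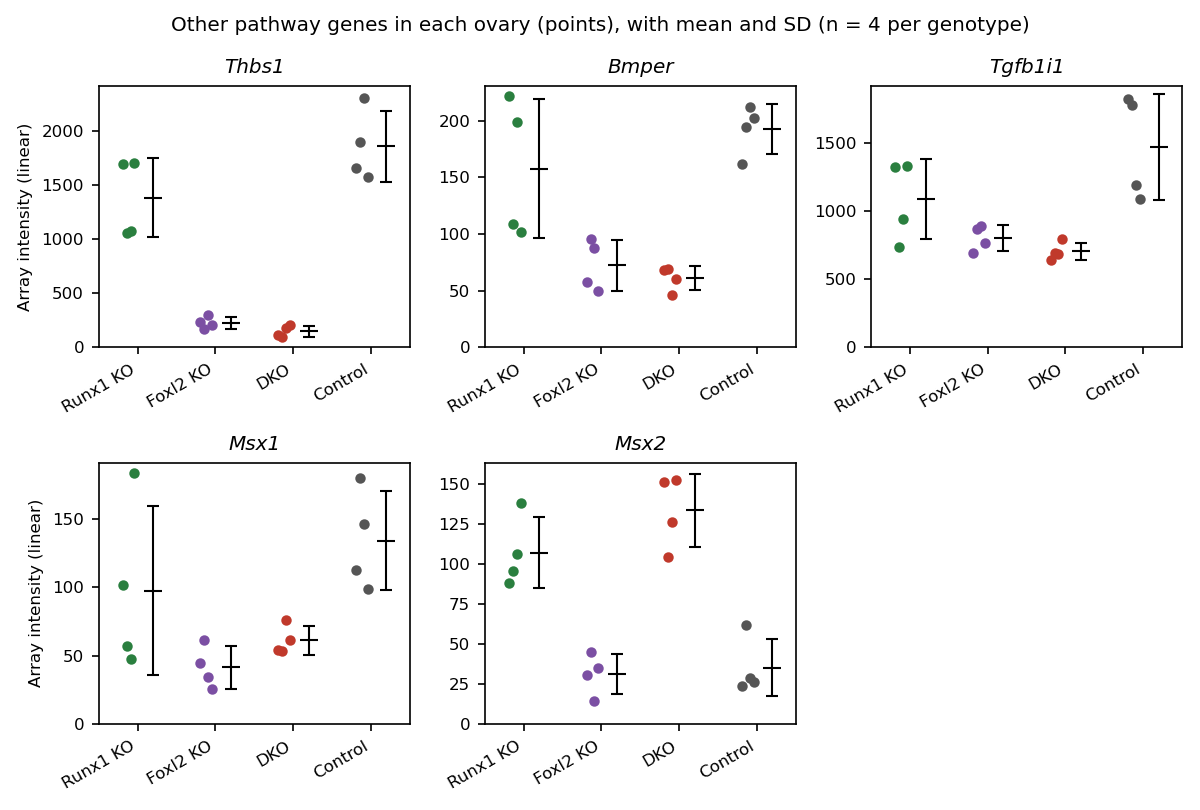
Linear array intensity (vertical axis) of the 5 further pathway genes called against control, in each ovary of the 4 genotypes (horizontal axis), with mean (bar) and SD (whiskers), n = 4 each. Thbs1 and Bmper are low in Foxl2 KO and DKO, and Msx2 is high in Runx1 KO and DKO.

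Over the 16 ovaries, the members whose log2 values ran most like those of Fst were Tgfbr1 (Pearson r = 0.67), Smad3 (0.63), Bmpr1a (0.47), Tgfb1 (0.36) and Bmpr2 (0.33). Those that ran most against it were Bmp7 (-0.65), Amhr2 (-0.63), Bmpr1b (-0.63), Fstl3 (-0.60) and Fstl1 (-0.48). These correlations are descriptions over ovaries that share 4 genotypes. After each group's mean was subtracted, they were 0.28 for Tgfbr1, 0.01 for Smad3 and 0.59 for Bmpr1a, and 0.11 for Bmp7, -0.05 for Amhr2, 0.13 for Bmpr1b and -0.53 for Fstl3.

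**Figure D5:**
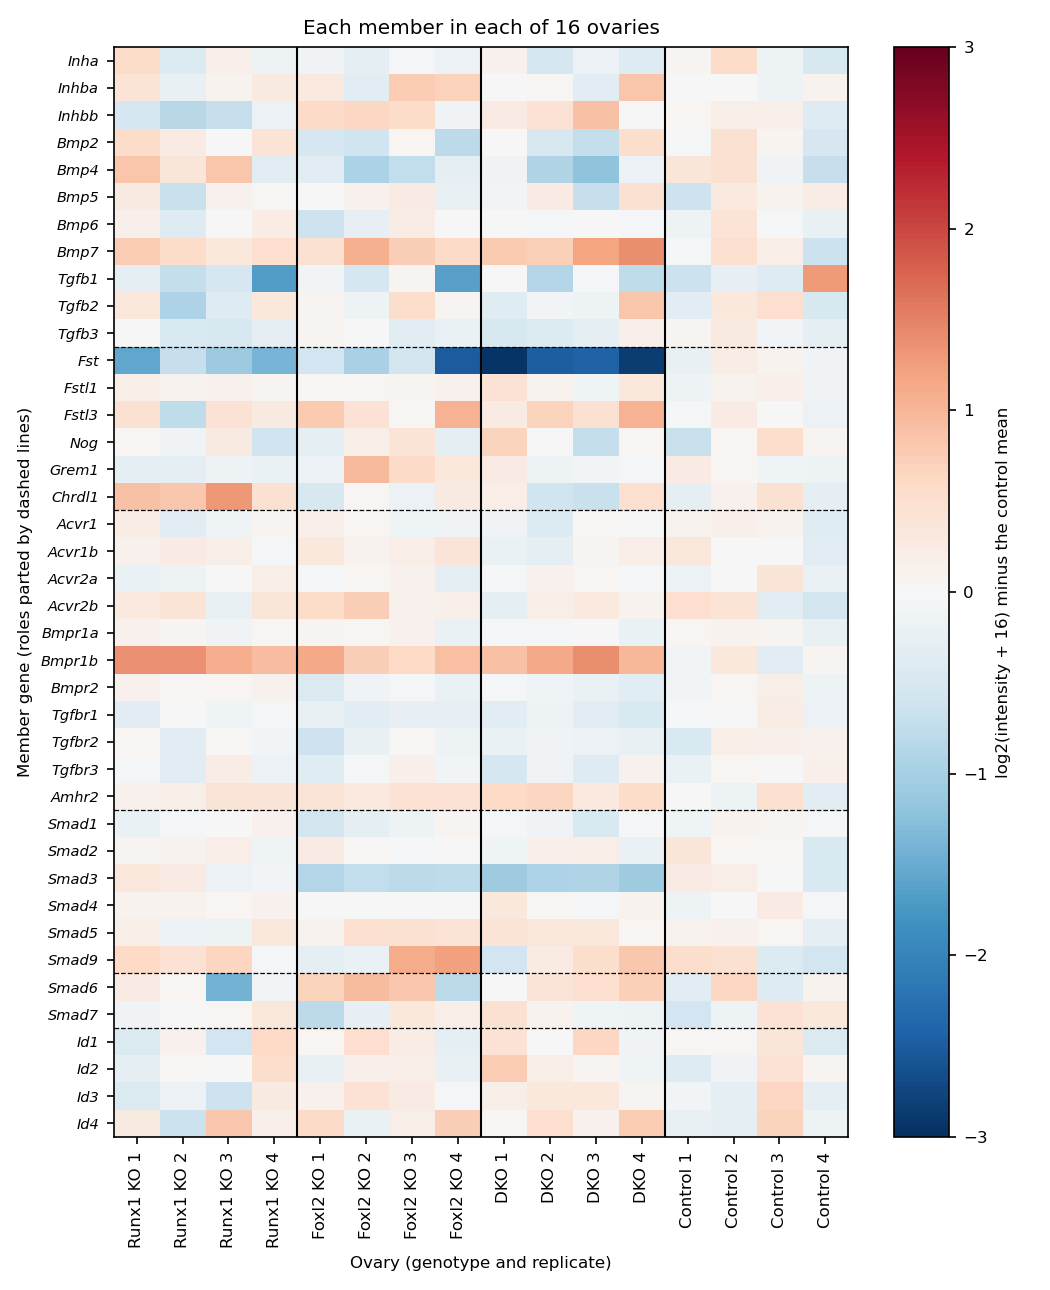
Log2(intensity + 16) of each member (rows, roles parted by dashed lines) in each of the 16 ovaries (columns, by genotype and replicate) minus the mean of the 4 controls. Fst is below the control mean in all 12 knockout ovaries and lowest in the 4 DKO ovaries and in Foxl2 KO replicate 4. Bmpr1b is raised in all 12 and Smad3 is lowered in the 8 ovaries without Foxl2.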

How the data were processed

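The deposited values are linear intensities per probe set, which the authors made with Affymetrix Expression Console 1.2 from biotin-labelled, amplified RNA, and each array has the same mean after 2% is trimmed at either end. The summarisation algorithm is not given in the sources used here. The array median ran from 134 to 177, and 11.2% to 15.6% of probe sets per array lay below 16. The study's own tests used values of another program, log2 and RMA-normalised, with a one-way analysis of variance. All 16 columns were matched to samples by title.

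Of 45101 probe sets, 64 were controls, 34945 matched 1 gene, 932 several and 9160 none in the platform annotation. The 40 members had 91 probe sets, and 28 members had more than 1. A gene was represented by its probe set with the highest mean log2(intensity + 16). A model with 4 group means was fitted over 18193 genes with limma 3.58.1 in R 4.3.3, with 6 contrasts, two-sided tests and Benjamini-Hochberg adjustment within each. The fit had 12 residual and 3.32 prior degrees of freedom. Precision is limited by the number of arrays, with a standard error of 0.20 for the median gene. Members were to be given by ovary where called, where all 4 knockout values lay beyond the controls with a log2 difference of at least 0.5, or where the unadjusted p was the smallest of a role, which named Bmp7, Fst, Bmpr1b, Smad3, Smad6 and Id3. Inhbb, Bmp4, Tgfb1, Chrdl1, Amhr2 and Tgfbr1 were added after their values were seen, and the other members are given by range. Marker lists are summed intensities or counts of called genes. Correlations with Fst are Pearson's r over 16 ovaries. The members and lists were chosen with earlier results of these data known.

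On simulated data with 200 changed genes of 18193, the model recovered 21.4% of 1.5-fold, 60.7% of 2-fold and 97.0% of 4-fold changes for DKO against control. Of its calls, 4.08% were false for DKO, 5.38% for Foxl2 KO and 3.50% for Runx1 KO. The simulated noise was normal and independent, so ovaries that stand apart over many genes, such as Control replicate 4, were not simulated. Alternatives were a trended robust prior, genes above the median level, the mean of all probe sets, quantile normalization, equal array medians, an offset of 50, a floor of 16, a replicate block, only the groups compared, the methods' analysis of variance, and each array left out.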

Additional observations from a re-analysis of the deposited data

Results flagged for a closer look

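In 2 of 48 sets of 4 ovaries examined, 1 ovary lay far from the other 3 of its genotype, at a limit that chance passes in about 5% of sets. Both were in Foxl2 KO replicate 4. Inhbb, the activin beta B subunit, read 1390 in that ovary, against 2166 to 2293 in the other Foxl2 KO ovaries. Smad6, an inhibitory Smad, read 11.5 in it, against 60.5 to 77.6 in the others, at intensities near background. The same ovary had the low Fst value of 359.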

How the results depend on the processing

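Direction was followed through the alternatives for the calls of Bmp7, Bmpr1b and Smad3 and for Fst in each contrast but the interaction. It was also followed for Inhbb in DKO against Runx1 KO, and none of these changed direction. The directions of other differences were not followed. Between the probe sets of Bmpr1b, DKO minus Runx1 KO ran from -0.09 to 0.22. The calls of Fst, Smad3 and Bmpr1b in DKO against control, and of Smad3 in DKO against Runx1 KO, passed under every alternative. The count in DKO against control was 3 to 5 throughout, while that over all genes ran from 272 to 1087. With only the groups compared in the fit, 0 members were called in Runx1 KO and 0 in Foxl2 KO, beside 6 and 175 of all genes. That fit has fewer arrays to estimate the spread, and why the calls were lost was not tested. The methods' analysis of variance, unadjusted and with a 1.5-fold minimum, gave 3 in Runx1 KO (Bmpr1b, Chrdl1 and Fst), 4 in Foxl2 KO (Bmp7, Bmpr1b, Fst and Smad3), 1 in DKO against Foxl2 KO (Fst) and 5 in DKO against Runx1 KO. Over all genes it called 510, 914, 402 and 752 in that order, against 22, 276, 11 and 180 in the main analysis. The member count in DKO against Runx1 KO, 1 in the main analysis, was 3 (Fst, Inhbb and Smad3) with an offset of 50, quantile normalization, genes above the median level or a trended robust prior. Those fits called 233, 220, 166 and 240 of the genes they tested. Members called numbered 2 (Fst and Smad3) with the mean of all probe sets or only the groups compared, beside 170 and 104 of all genes. The cause was not tested. Leaving out 1 array gave 1 to 2 calls in Runx1 KO, 1 to 2 in Foxl2 KO, 3 to 5 in DKO, 0 to 1 in DKO against Foxl2 KO and 1 to 3 in DKO against Runx1 KO. Over all genes the counts were 12 to 21, 183 to 294, 277 to 395, 6 to 16 and 111 to 205 in that order. The interaction gave 0 calls in every fit.

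Arrays with the same replicate number did not deviate together (median residual correlation -0.0318 over 24 pairs from different groups, with 1 pair above 0.1), so no pairing by number was seen. The labels give no litter or batch, so whether ovaries shared either is not known. With the replicate block, 2 members were called in DKO against Runx1 KO, Fst (adjusted p = 0.0418) and Smad3, beside 130 of all genes. The Bmp7 call in DKO was lost with that block (adjusted p = 0.0540).

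Bmp7 in DKO also missed the threshold with the mean of its probe sets (adjusted p = 0.0541) and with only the groups compared (0.112). Equal array medians gave 124 genes higher and 143 lower in Foxl2 KO, against 148 and 128 in the main analysis. Dim members such as Grem1 and Smad9 read near background (mean log2 levels 4.56 and 5.30), and what this did to their differences was not tested.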
